A study of Mus musculus with 12 samples.

Results

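Notch receptors, their ligands and the best known Notch target genes were followed across the chondrocyte compartments of the developing mouse forelimb. The 10 genes were chosen by symbol, namely the receptors *Notch1*, *Notch2*, *Notch3* and *Notch4*, the ligands *Jag1*, *Jag2*, *Dll1* and *Dll4*, and the targets *Hes1* and *Hey1*. All 10 were found among the 36186 gene rows of the table. RNA-Seq had been made from zeugopod (radius and ulna) tissue of E15.5 forelimbs on a mixed 129 and CD-1 background, taken by laser capture microdissection (LCM), with 3 libraries in each of 4 groups. WT resting, WT proliferative and WT hypertrophic samples each came from their own zone of the growing cartilage, the last being labelled hyperproliferative by the depositors. The *aadd* samples were homozygous for first-exon frameshifts in 6 genes, *Hoxa9*, *Hoxa10*, *Hoxa11*, *Hoxd9*, *Hoxd10* and *Hoxd11*. They are labelled resting, but the methods describe the whole chondrocyte population of these small, undifferentiated elements as the sample, with some perichondrium in samples of both genotypes. No other allele or treatment is given for any group, and the libraries of a group are described as independent sets, with the number of embryos in each set not given, so *P* values measure the spread between these libraries.

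Notch receptors are membrane proteins that are cut when a neighbouring cell presents a Jagged or Delta-like ligand. The freed intracellular part enters the nucleus, joins RBPJ and Mastermind-like coactivators, and turns on genes of the Hes and Hey families of repressors. In endochondral bone the pathway is known for roles in chondrocyte maturation and in the cells of the bone lineage, and in blood vessels for the choice between tip and stalk cells and the arterial fate, where Dll4 and Notch4 are characteristic of endothelium.

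Expression is given as NRPKM, reads scaled by transcript length and sequencing depth (RPKM) after a further normalization between libraries by the authors, so levels can be set side by side between genes. The table holds no read counts. From the steps between values of 1711 single-exon genes, the depth came to 1890000 to 3240000 reads per library, so that a transcript of 1 kb gains 0.309 to 0.530 NRPKM with each read. Of the mutated Hox genes, *Hoxd9*, *Hoxd10* and *Hoxd11* were higher in every *aadd* library than in any WT resting library (22.5 to 29.6 against 5.59 to 8.79, 39.6 to 52.1 against 12.2 to 23.3 and 25.1 to 35.4 against 4.34 to 7.31 NRPKM). *Hoxa11* was lower in every one (5.17 to 11.1 against 11.3 to 30.5), and *Hoxa9* and *Hoxa10* overlapped. Frameshifts need not remove a transcript, so this checks no label. The cartilage collagen gene *Col2a1* was at 245 NRPKM or more in every library, and *Col10a1*, the hypertrophic collagen, was at 166 to 264 in WT hypertrophic and at most 111 elsewhere. Hypertrophic replicate 1 did not resemble replicates 2 and 3. Replicates 2 and 3 had a summed level of 10 cartilage matrix genes of 713 and 1045 NRPKM, and the other 10 libraries, hypertrophic replicate 1 among them, had 2551 to 5007. In the same 2 libraries the sum of 10 endothelial marker genes was 304 and 212 NRPKM, against 21.7 in hypertrophic replicate 1 and 5.0 to 37.3 over the other 10 libraries. The sum of 10 osteoclast genes was 1493 and 1085 against 15.8 to 72.9. Differences of the hypertrophic group are therefore also given without replicate 1 for the 10 genes and the pathway genes named.

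*Notch2* and *Notch1* were the most abundant members outside the hypertrophic group. In WT resting the mean level was 34.2 ± 2.40 NRPKM (SD, n = 3) for *Notch2* and 10.0 ± 2.19 for *Notch1*, followed by the target *Hes1* at 5.14 ± 1.82. These 3 were separated from each other, each with all its libraries above those of the next. Then came *Notch3*, *Jag1*, *Hey1*, *Jag2* and *Notch4*, at 2.99, 2.51, 1.47, 0.543 and 0.343 NRPKM, and the libraries of neighbours in this order overlapped. *Dll4* and *Dll1*, at 0.125 and 0.0842 NRPKM, also overlapped each other, and all *Dll4* libraries lay below those of *Notch4*. In *aadd* the order was again *Notch2*, *Notch1*, *Hes1*, *Notch3* and *Jag1* at the top, with *Notch1* and *Hes1* overlapping. In WT proliferative *Notch2* and *Notch1* again stood apart from all that followed. In WT hypertrophic the order of the means was *Notch2*, *Hey1*, *Notch1*, *Hes1*, *Notch3*, *Notch4*, *Jag1*, *Dll4*, *Dll1* and *Jag2*, and every neighbouring pair overlapped.

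**Figure D1:**
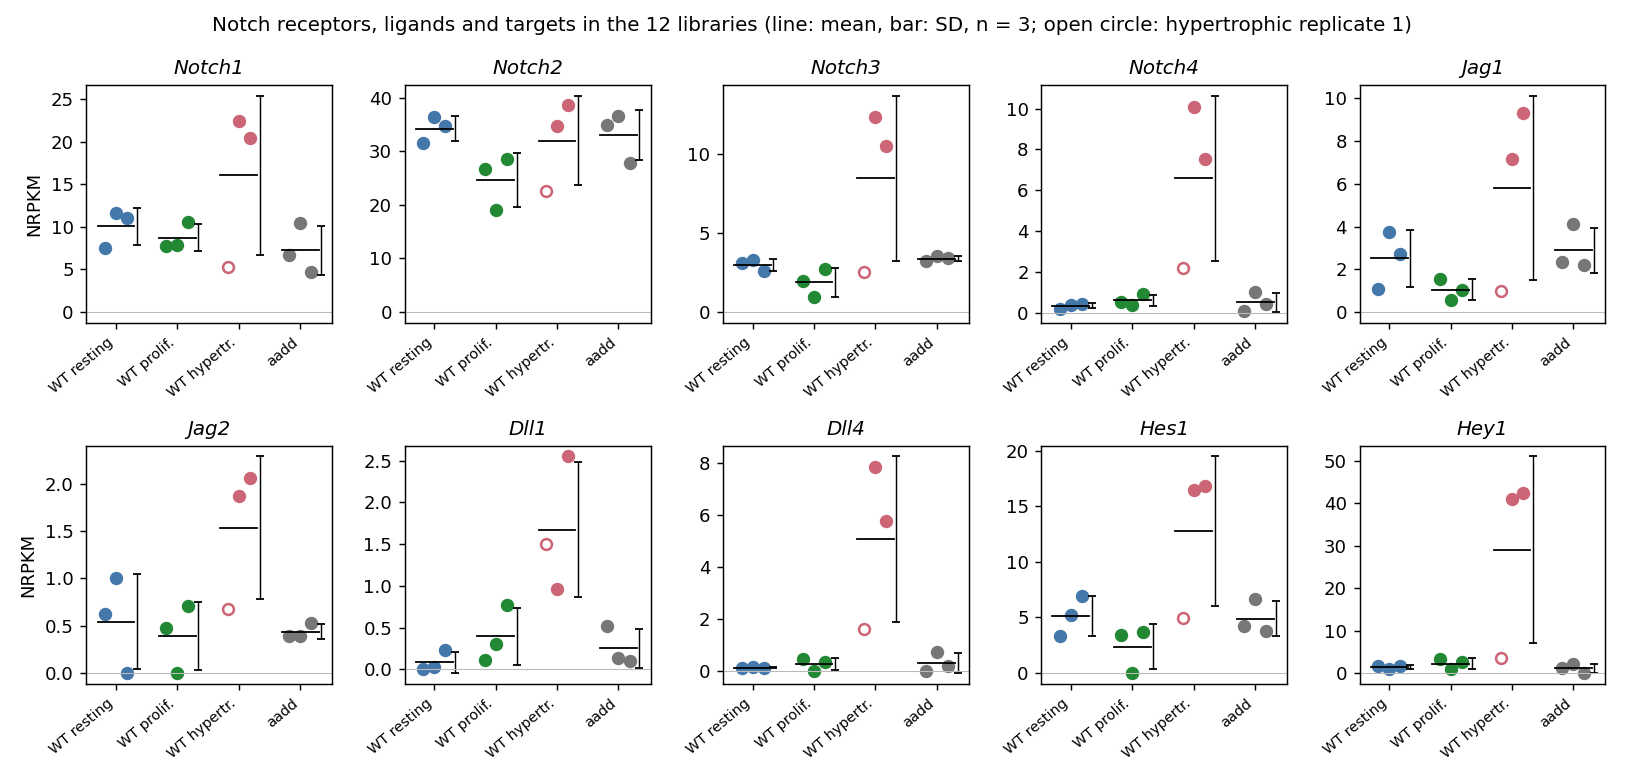
NRPKM of each of the 10 genes (vertical axes, linear, each with its own scale) in the 12 libraries by group; points are libraries, lines the mean and bars the SD of 3, and the open circle is hypertrophic replicate 1. For *Hey1*, hypertrophic replicates 2 and 3 sit at 41.0 and 42.4 NRPKM and the other 10 libraries at 0.158 to 3.69, whereas *Notch2* spans 19.0 to 38.7 with no such gap.

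*Notch2* lies on chromosome 3 (mm10 98013538-98150367, plus strand, 34 exons in its longest annotated transcript). It encodes the receptor with the highest level of the 4 in each of the 12 libraries. Its level was 31.6, 36.3 and 34.7 NRPKM in WT resting, 26.6, 19.0 and 28.5 in WT proliferative, 22.6, 34.6 and 38.7 in WT hypertrophic (replicates 1, 2 and 3) and 34.8, 36.5 and 27.8 in *aadd*. The WT proliferative libraries were all below the WT resting ones, and every other pair of groups overlapped. *Notch1*, on chromosome 2 (26457902-26503822, minus strand, 34 exons), is a receptor with roles in many developing tissues. It was at 7.54, 11.6 and 11.0 NRPKM in WT resting, 7.76, 7.86 and 10.6 in WT proliferative, 5.28, 22.4 and 20.4 in WT hypertrophic and 6.65, 10.4 and 4.69 in *aadd*. Hypertrophic replicates 2 and 3 were the highest of the 12 libraries and hypertrophic replicate 1 was the lowest but for *aadd* replicate 3. The gene *0610009E02Rik* overlaps *Notch1* on the other strand and was listed at 0.83 to 3.29 NRPKM, and whether strand was used in counting is not given in the sources used here.

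*Notch3* (chromosome 17, 32120893-32166852, minus strand, 33 exons) is known from mural cells of vessels, among other tissues. It was at 3.11, 3.28 and 2.57 NRPKM in WT resting, 1.94, 0.928 and 2.73 in WT proliferative, 2.51, 12.3 and 10.5 in WT hypertrophic and 3.21, 3.52 and 3.40 in *aadd*. Hypertrophic replicates 2 and 3 were again the highest and replicate 1 lay within the range of the other groups. *Notch4*, the receptor characteristic of endothelium, lies on the same chromosome (34564295-34588543, plus strand, 30 exons). It was at 0.199, 0.388 and 0.442 NRPKM in WT resting, 0.537, 0.363 and 0.898 in WT proliferative, 2.17, 10.1 and 7.51 in WT hypertrophic and 0.0688, 1.01 and 0.426 in *aadd*. All 3 hypertrophic libraries, replicate 1 included, were above all 9 others. Of all rows, 9.48% had all hypertrophic libraries above all WT proliferative ones. The share above all 9 others was not counted, here or for the ligands below. These *Notch4* values rest on about 33.4, 214.9 and 147.4 reads in the hypertrophic libraries and on at most 14.7 in any other. Overlapping rows were *Gm17276* for *Notch3*, on the other strand, at up to 2.30 NRPKM, and *BC051142* for *Notch4*, on the same strand, at up to 1.5, so that a part of the *Notch4* reads could have been split between both rows.

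Among the ligands, *Jag1* (chromosome 2, 137081451-137116520, minus strand, 26 exons) was the most abundant outside the hypertrophic group. It was at 1.08, 3.72 and 2.72 NRPKM in WT resting, 1.54, 0.569 and 1.05 in WT proliferative, 1.0, 7.15 and 9.29 in WT hypertrophic and 2.35, 4.11 and 2.20 in *aadd*. Hypertrophic replicates 2 and 3 were above all others, while replicate 1 was the lowest but for WT proliferative replicate 2. *Jag2* (chromosome 12, 112908590-112929495, minus strand, 26 exons), the second Jagged ligand, was at 0.628, 1.0 and 0 NRPKM in WT resting, 0.471, 0 and 0.705 in WT proliferative, 0.674, 1.87 and 2.07 in WT hypertrophic and 0.388, 0.393 and 0.524 in *aadd*. Outside hypertrophic replicates 2 and 3 it rested on at most 12.3 reads, and hypertrophic replicate 1 lay within the WT resting range.

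*Dll1* (chromosome 17, 15367354-15375823, minus strand, 11 exons), a Delta-like ligand best known from somites and neural progenitors, was at 0, 0.0243 and 0.228 NRPKM in WT resting, 0.111, 0.305 and 0.772 in WT proliferative, 1.5, 0.964 and 2.55 in WT hypertrophic and 0.524, 0.138 and 0.102 in *aadd*. All 3 hypertrophic libraries were the highest, and here replicate 1 stood between replicates 2 and 3. *Dll4* (chromosome 2, 119325784-119335666, plus strand, 11 exons), the ligand of endothelial tip cells, was at 0.0981, 0.150 and 0.127 NRPKM in WT resting, 0.443, 0 and 0.362 in WT proliferative, 1.61, 7.84 and 5.74 in WT hypertrophic and 0, 0.741 and 0.202 in *aadd*. All 3 hypertrophic libraries were above all 9 others, with replicate 1 at 14.1 reads and replicates 2 and 3 at 95.1 and 64.0. *Gm14207* overlaps *Dll4* on the other strand and was at most 0.534 NRPKM.

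The targets are helix-loop-helix repressors. *Hes1* (chromosome 16, 30065357-30067796, plus strand, 4 exons) was at 3.31, 5.17 and 6.94 NRPKM in WT resting, 3.42, 0 and 3.65 in WT proliferative, 4.97, 16.5 and 16.8 in WT hypertrophic and 4.19, 6.69 and 3.79 in *aadd*. Hypertrophic replicates 2 and 3 were the highest, replicate 1 lay within the WT resting range, and WT proliferative replicate 2 was listed at 0, where the other 11 libraries rested on 10.1 to 78.5 reads. *Hey1* (chromosome 3, 8663359-8667038, minus strand, 5 exons) was at 1.69, 0.944 and 1.77 NRPKM in WT resting, 3.29, 0.948 and 2.75 in WT proliferative, 3.69, 41.0 and 42.4 in WT hypertrophic and 1.30, 2.27 and 0.158 in *aadd*. The gap between hypertrophic replicates 2 and 3, each on over 300 reads, and the library nearest to them was wider for *Hey1* than for any other member on the NRPKM scale. Hypertrophic replicate 1 was the highest of the remaining 10 libraries but only just above WT proliferative replicate 1.

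Promoter sequence from RefSeq (GRCm38.p6, the assembly of mm10) was matched for 8 of the 10 genes, all but *Hes1* and *Hey1*. Each is the 250 bases before the annotated start, read 5′ to 3′ on the strand of the gene. Shown are *Notch4* and *Dll4*, a receptor and a ligand with all 3 hypertrophic libraries above the other 9, and *Notch2*, the most abundant receptor, whose hypertrophic and resting libraries overlapped. Capitals mark matches on either strand to CACGNG, the letters bound by Hes and Hey repressors. TGGGAA, bound by RBPJ, and TGANTCA, bound by AP-1, were also searched on both strands and had no match in these 3 windows. The windows are chr17:34564045-34564294 (plus strand), chr2:119325534-119325783 (plus strand) and chr3:98013288-98013537 (plus strand).
Notch4: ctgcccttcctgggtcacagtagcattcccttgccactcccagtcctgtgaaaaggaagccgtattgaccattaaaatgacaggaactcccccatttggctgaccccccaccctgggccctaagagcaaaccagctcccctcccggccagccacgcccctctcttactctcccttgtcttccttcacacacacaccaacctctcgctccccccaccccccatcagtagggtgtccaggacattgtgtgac
Dll4: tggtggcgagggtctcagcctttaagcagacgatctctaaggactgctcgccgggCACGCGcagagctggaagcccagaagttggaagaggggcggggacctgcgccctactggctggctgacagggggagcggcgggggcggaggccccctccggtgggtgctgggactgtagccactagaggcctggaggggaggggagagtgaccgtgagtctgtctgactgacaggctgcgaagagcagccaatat
Notch2: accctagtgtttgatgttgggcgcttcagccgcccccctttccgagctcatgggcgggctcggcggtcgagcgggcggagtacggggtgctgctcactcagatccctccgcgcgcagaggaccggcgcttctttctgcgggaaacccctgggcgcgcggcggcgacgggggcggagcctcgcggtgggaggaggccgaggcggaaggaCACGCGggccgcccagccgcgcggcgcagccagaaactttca

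Of the 8 genes with a promoter, 5 held CACGNG (*Notch2*, *Notch3*, *Jag1*, *Dll1* and *Dll4*), 1 held TGANTCA (*Dll1*, in the window of the upstream one of its 2 annotated starts) and 0 held TGGGAA. Among 32817 mouse promoter windows of the same length, 23.5% held CACGNG, 6.75% TGANTCA and 21.6% TGGGAA. The GC content of the windows was 58.4% for *Notch4*, 65.6% for *Dll4* and 72.0% for *Notch2*. A match is a description of letters, and nothing about binding was measured.

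The balance among the receptors and among the ligands differed in the hypertrophic group. Of the summed NRPKM of the 4 receptors, *Notch2* made up 70.4 to 74.5% in WT resting, 66.7 to 72.2% in WT proliferative and 71.0 to 77.8% in *aadd*, but 69.4, 43.6 and 50.2% in hypertrophic replicates 1, 2 and 3. *Notch4* made up 0.470 to 0.907%, 1.29 to 2.10% and 0.154 to 1.97% in the same 3 groups, and 6.68, 12.7 and 9.74% in the hypertrophic libraries. So all 3 hypertrophic libraries had a higher share of *Notch4* than any other library, also replicate 1, in which the total of 32.5 NRPKM was within the range of the other groups (28.1 to 51.6). Of the 4 ligands, *Jag1* made up 59.8 to 88.5% in WT resting and 72.1 to 76.4% in *aadd*, 36.4 to 65.1% in WT proliferative, and 21.0 to 47.3% in WT hypertrophic. *Dll4* made up 29.2 to 44.0% of the ligand sum in WT hypertrophic and at most 17.3% in any other library. The summed ligand level was 0.874 to 5.38 NRPKM in the 3 other groups, 4.79 in hypertrophic replicate 1 and 17.8 and 19.6 in replicates 2 and 3. Shares of the low ligands rest on few reads. In bulk samples a larger share of cells of a type and more RNA per cell cannot be told apart.

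**Figure D2:**
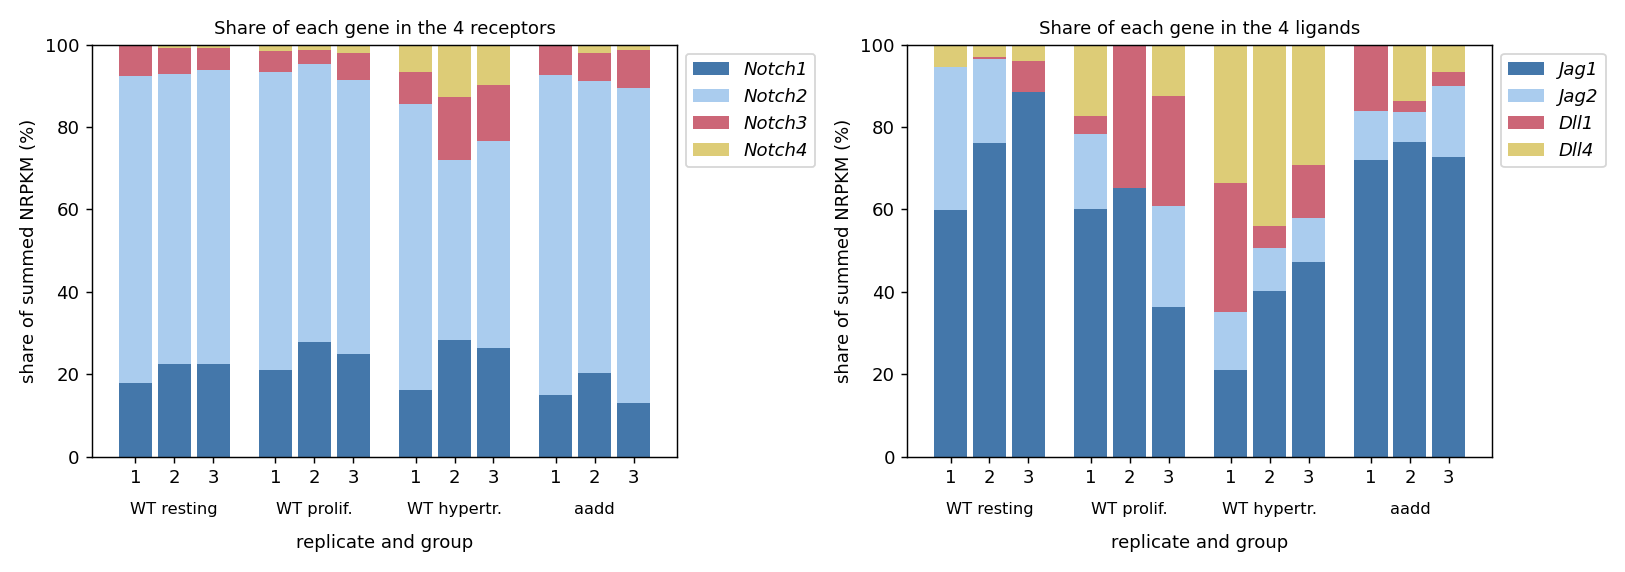
Share (%) of each gene in the summed NRPKM of the 4 receptors (left) and the 4 ligands (right), a stacked bar for each of the 12 libraries, by replicate and group. The *Notch4* share is 6.68 to 12.7% in the 3 hypertrophic libraries and at most 2.10% in the other 9, and the *Dll4* share of the ligands is 29.2 to 44.0% against at most 17.3%.

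The groups were compared with limma on log2(NRPKM + 0.1), 3 libraries against 3, with the criteria of the study: an unadjusted *P* up to 0.05 and a fold change (FC) of at least 2 between compartments or 1.5 for *aadd*, in genes that reached 5 NRPKM in 3 or more of the 12 libraries. Adjusted *P* is Benjamini-Hochberg over all genes tested. *Notch1*, *Notch2* and *Hes1* passed this filter and the other members did not. Those 7 were tested in a fit of all rows above 0, named so wherever it is used. An exact permutation test of 3 against 3 cannot give a *P* below 0.1. The comparisons share groups: WT resting enters 3 of them and WT hypertrophic and WT proliferative enter 2 each, so they are not independent. For *aadd* the study also used an Audic-Claverie test of pooled reads, which found more differences and was not run here. Hypertrophic against resting was not a two-way comparison of the study, and the compartment criteria were applied to it.

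The first comparison asked what differs as resting chondrocytes begin to proliferate. *Notch2* was lower in WT proliferative, by 0.49 ± 0.20 (SE) on the log2 scale, an FC of 1.4 (limma adjusted *P* = 0.29), which is short of the FC criterion. Its libraries did not overlap, as was so for 14.2% of all genes in this direction. *Notch1* differed by -0.19 ± 0.23 (adjusted *P* = 0.71). *Hes1* differed by -2.19 ± 1.38 (adjusted *P* = 0.46), a value that depends on the library listed at 0: without WT proliferative replicate 2 it was -0.47. So 0 of the 3 genes past the filter met the criteria, where 5.53% of all genes did. At an unadjusted *P* up to 0.05 alone the limma count was 1, *Notch2*, against 17.1% of all genes. Without the filter 0 of 10 met them (7.26% of all rows). In that fit the log2 differences of the other 7 ran from -1.11 ± 0.56 for *Jag1* to 1.40 ± 0.69 for *Dll1*, with adjusted *P* of 0.50 or more. Same-numbered resting and proliferative libraries deviated together, and in a fit that blocked on that number *Dll1* met the criteria (adjusted *P* = 0.35 in limma), on at most 5.2 reads per library. In the filtered fit with this block *Notch2* had an unadjusted *P* of 0.068 in limma, above 0.05. Leaving out 1 library let *Notch3* (without WT proliferative replicate 3), *Jag1* (without WT resting replicate 1), *Dll1* (without WT resting replicate 3 or WT proliferative replicate 1), *Dll4* and *Hey1* (both without WT proliferative replicate 2) meet the criteria, with log2 differences of -1.09, -1.60, 1.92, 1.90, 1.16 and 1.03 in this order. None of these was significant after adjustment in limma (adjusted *P* of 0.28 to 0.65, fits of all rows). With the same libraries left out, 4.97 to 7.4% of the genes past the filter met the criteria. The share over all rows was not counted for these fits, and with every library kept it was 7.26%.

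The next comparison followed the step from proliferation to hypertrophy. With the filter, 0 of the 3 genes met the criteria, against 9.67% of all genes, and 0 had an unadjusted *P* up to 0.05 in limma, against 19.3%. *Hes1* came nearest, at 3.36 ± 1.47 (adjusted *P* = 0.28) with no overlap between the groups. It met the criteria when any 1 WT proliferative library was left out, at 4.20 without replicate 1, 1.63 without replicate 2, the one listed at 0, and 4.24 without replicate 3. *Notch1* was at 0.63 ± 0.57 (adjusted *P* = 0.55) and *Notch2* at 0.36 ± 0.28 (adjusted *P* = 0.50).

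In the fit of all rows, 5 of 10 members met the criteria, all higher in WT hypertrophic, where 9.42% of all rows met them and 4.97% did so as higher. These were *Dll4* at 3.88 ± 0.89 (FC 14.7), *Hey1* at 3.12 ± 1.09 (FC 8.69), *Notch4* at 3.07 ± 0.66 (FC 8.42), *Dll1* at 1.97 ± 0.63 (FC 3.92) and *Notch3* at 1.95 ± 0.73 (FC 3.87). None of the 5 was significant after adjustment, with adjusted *P* of 0.25 to 0.41, and 0.0444% of all rows were. *Notch4*, *Dll1*, *Dll4*, *Hes1* and *Hey1* had all hypertrophic libraries above all proliferative ones, as did 9.48% of all rows. The median log2 difference over the 10 genes was 2.01, and over all rows it was -0.04. The calls of *Notch4* and *Dll4* held whichever library was left out. *Hey1* kept its call only when hypertrophic replicate 1 was the library left out, and the value ran from 2.53 to 4.27. *Notch3*, at 1.54 to 2.66, lost its call without WT proliferative replicate 1 or 2 or hypertrophic replicate 2 or 3, and *Dll1*, at 1.47 to 2.50, without WT proliferative replicate 1 or 2 or hypertrophic replicate 1 or 3. In the blocked fit *Notch3* and *Hey1* also lost theirs (adjusted *P* = 0.52 for both).

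Without hypertrophic replicate 1, the difference from WT proliferative was 1.30 ± 0.21 for *Notch1* (adjusted *P* = 0.020 in limma, filtered fit), 3.73 ± 0.42 for *Notch4* (0.034, all rows), 4.27 ± 0.59 for *Hey1* (0.044) and 2.93 ± 0.46 for *Jag1* (0.050). *Dll4* was then at 4.54 ± 0.86 and *Notch3* at 2.66 ± 0.50, both with an adjusted *P* of 0.068. *Hes1* was at 3.93 ± 1.68 (0.17, filtered fit), *Jag2* at 2.53 ± 1.01 (0.24) and *Dll1* at 1.99 ± 0.77 (0.22). With all libraries *Jag1* was at 1.97 (95% interval -0.28 to 4.21) and *Jag2* at 2.06 (-0.19 to 4.30) in the fit of all rows. The median over the 10 genes was 2.80, and -0.13 over all rows. These values compare 2 libraries with 3, and in such a fit 17.4% of all genes past the filter and 3.93% of all rows had an adjusted *P* under 0.05. *Notch2* was at 0.59 ± 0.24 without that library (adjusted *P* = 0.15), and at 0.36 with all libraries.

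**Figure D3:**
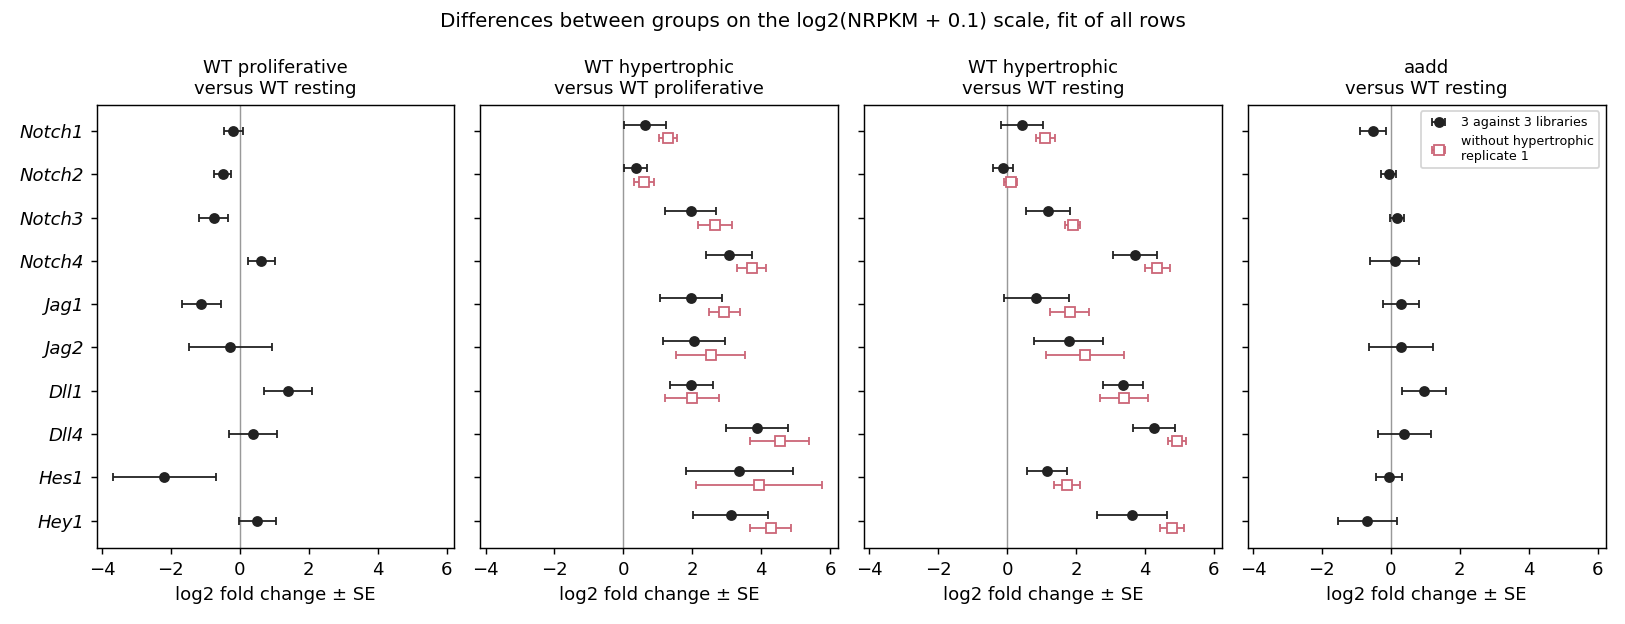
Log2 difference of each gene between groups on the log2(NRPKM + 0.1) scale, ± SE, from the fit of all rows in the 4 comparisons; filled circles use 3 against 3 libraries and open squares leave out hypertrophic replicate 1. The differences of WT hypertrophic from the other WT groups run up to 4.26 with all libraries and 4.93 without replicate 1, those of *aadd* stay between -0.68 and 0.96, and fitted values of *Dll1* and *Dll4* against WT resting rest on at most 2.1 reads in the resting libraries.

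The ends of the sequence, WT hypertrophic and WT resting, were then set against each other. Again 0 of the 3 genes past the filter met the criteria, where 13.0% of all genes did, and 0 had an unadjusted *P* up to 0.05 in limma, against 26.4%. *Hes1* was at 1.16 ± 0.54 (adjusted *P* = 0.23), *Notch1* at 0.44 ± 0.57 (adjusted *P* = 0.65) and *Notch2* at -0.13 ± 0.24 (adjusted *P* = 0.76). In the blocked fit *Hes1* met the criteria (adjusted *P* = 0.12).

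In the fit of all rows 4 of 10 met the criteria, all higher in WT hypertrophic, against 12.5% of all rows and 6.76% of rows as higher. The same 4, *Notch4*, *Dll1*, *Dll4* and *Hey1*, were separated from WT resting in every library, as 11.3% of rows were. *Notch4* was higher by 3.71 ± 0.63 (limma adjusted *P* = 0.065) and *Hey1* by 3.63 ± 1.01 (FC 12.4, adjusted *P* = 0.17). *Dll1* and *Dll4* had at most 2.1 and 1.3 reads in any WT resting library, so their fold is a lower bound against 3 reads per library: the hypertrophic mean was at least 5.22-fold higher for *Dll1* and at least 16.6-fold higher for *Dll4*. Without hypertrophic replicate 1 these bounds were 5.49-fold and 22.2-fold. In limma *Dll4* had an adjusted *P* of 0.044, the only member under 0.05, as 1.31% of rows were, and *Dll1* had 0.067. The adjusted *P* of *Dll4* ranged from 0.0052 to 0.15 with each library left out. The median log2 difference of the 10 genes was 1.49, also with *Dll1* and *Dll4* at their bounds, and that of all rows was 0.01.

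Leaving out hypertrophic replicate 1 again moved the others. *Notch1* was then higher than in WT resting by 1.11 ± 0.24 (adjusted *P* = 0.025 in limma) and *Hes1* by 1.74 ± 0.32 (0.018), and both met the criteria, as 9.42% of genes past the filter did as higher. *Notch3* was higher by 1.90 ± 0.23 (0.019), *Notch4* by 4.36 ± 0.36 (0.0099) and *Hey1* by 4.78 ± 0.34 (0.0078) in the fit of all rows, in which 8.94% of rows had an adjusted *P* under 0.05 (24.2% in the filtered fit). *Jag1*, at 1.82 ± 0.57, met the criteria (10.5% of rows did so as higher) but not the adjustment (adjusted *P* = 0.14), and *Jag2*, at 2.26 ± 1.13, met neither (adjusted *P* = 0.30). With all libraries *Notch3* was at 1.19 (95% interval -0.39 to 2.77), *Jag1* at 0.85 (-1.48 to 3.18) and *Jag2* at 1.79 (-0.69 to 4.26). *Dll4* and *Dll1*, given above by their bounds, had adjusted *P* of 0.0052 and 0.059. The median over the 10 genes was 2.08, and -0.09 over all rows. *Notch2* was at 0.10 ± 0.16 (adjusted *P* = 0.68).

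The *aadd* samples were compared with WT resting, the compartment that their label names. Here 0 of the 3 genes past the filter met the criteria, against 6.56% of all genes, and 0 of 10 in the fit of all rows, against 5.82%. At an unadjusted *P* up to 0.05 the limma counts were 0 in both, against 9.58% and 6.11%. *Notch2* differed by -0.06 (95% interval -0.47 to 0.35 on the log2 scale), *Hes1* by -0.05 (-0.83 to 0.73) and *Notch1* by -0.51 (-1.27 to 0.25). *Notch1* met the criteria without *aadd* replicate 2, at -0.81 (adjusted *P* = 0.46, and 0.46 to 0.99 over all libraries left out in turn). *Notch3*, with *aadd* libraries at 3.21 to 3.52 NRPKM, had the narrowest interval of the other 7, at 0.18 (-0.32 to 0.68, fit of all rows). The intervals of *Jag1* (0.30, -0.98 to 1.58) and *Hey1* (-0.68, -2.81 to 1.46) were wide enough to hold changes of more than the FC criterion in either direction. *Notch4* (0.11, -1.69 to 1.90), *Jag2* (0.30, -1.98 to 2.58), *Dll1* (0.96, -0.63 to 2.55) and *Dll4* (0.39, -1.52 to 2.30) rest on at most 14.7 reads per library in both groups. The sums of the 4 receptors overlapped, at 36.3 to 51.5 NRPKM in *aadd* and 42.4 to 51.6 in WT resting.

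Across all 4 groups, limma's moderated F test gave 0 of the 3 genes past the filter an adjusted *P* under 0.05, where 13.8% of genes had one, and 0 an unadjusted *P* up to 0.05, where 31.0% had. In the fit of all rows *Notch4* had an adjusted *P* of 0.044, where 3.93% of rows were under 0.05, and *Dll4* (0.055) and *Dll1* (0.069) followed. Without hypertrophic replicate 1 *Notch1* was under 0.05 in the filtered fit (0.020), as 28.1% of genes were. In the fit of all rows without that library, *Notch3* (0.013), *Notch4* (0.015), *Hey1* (0.018), *Dll4* (0.028) and *Jag1* (0.043) were under 0.05, as 10.9% of rows were.

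Hypertrophic replicates 2 and 3 both lay above all the other 10 libraries for 8 of the 10 genes, all but *Notch2* and *Dll1*. Of the 23070 rows above 0 in any library 11.6% did so, and of the 10936 past the filter 16.4%. Markers of other cell types moved with the same libraries. Both libraries were above the other 10 for 10 of 10 endothelial genes, 10 of 10 osteoclast genes, 8 of 10 osteoblast genes, 5 of 8 erythroid genes, 4 of 10 mural genes and 2 of 9 macrophage genes. The endothelial genes *Cdh5* and *Pecam1* were at 96.5 and 46.2 NRPKM in replicate 2, 72.5 and 35.0 in replicate 3, and at most 12 and 6.97 in the other 10 libraries. The summed macrophage level was 249 and 220 NRPKM against 15.3 to 47.5, with *Csf1r* at 56.7 and 49.6 (at most 2.71 elsewhere), *Cd68* at 174 and 160 (at most 18.2 elsewhere) and *C1qa* at most 0.313 in any library. The summed mural level of 185 and 170 NRPKM lay within the 88.7 to 240 of the other 10, with *Pdgfrb*, *Abcc9*, *Kcnj8* and *Mcam* above those 10 libraries and *Cspg4* and *Ndufa4l2* below them. Of 10 genes of the perichondrium and connective tissue 4 were above, of 10 hypertrophic chondrocyte genes 3, and of 10 skeletal muscle genes 1, while 9 of 10 cartilage matrix genes and 4 of 10 neural genes were below. Some lists share genes, so these counts are not independent. *Sp7*, *Spp1* and *Alpl* are in the osteoblast and hypertrophic chondrocyte lists, and *Col1a1* is in the osteoblast and perichondrium lists. The part of other cell types in the levels of the Notch genes was not tested.

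The genes could also be followed in the 10 libraries without those 2. There the correlation with the summed endothelial level, on the log2 scale, was 0.65 for *Notch4*, 0.66 for *Dll4*, 0.56 for *Hey1*, 0.42 for *Dll1*, 0.37 for *Notch1* and 0.25 for *Notch2* and *Notch3*. It was 0.38 for *Jag1* and *Hes1* and 0.16 for *Jag2*. With the summed osteoclast level it was 0.83 for *Notch4*, 0.72 for *Dll4* and 0.59 for *Hey1*, and with the summed osteoblast level 0.85, 0.72 and 0.66. Over the other 7 genes it ran from -0.54 (*Notch2*) to 0.42 (*Dll1*) with the osteoclast level and from -0.45 (*Notch2*) to 0.58 (*Dll1*) with the osteoblast level, and *Jag1* was at -0.51 and -0.38. With the summed mural level, of which *Cspg4* made up 57.2 to 111 NRPKM in these libraries, it was 0.80 for *Notch2*, 0.75 for *Notch1* and 0.71 for *Jag1*, and ran from -0.37 (*Dll1*) to 0.42 (*Notch3*) for the others. With the perichondrium list *Notch4*, *Dll4* and *Hey1* were at 0.73, 0.57 and 0.42, and with the hypertrophic chondrocyte list at 0.61, 0.43 and 0.54, where *Notch2* and *Jag1* were at -0.78 and -0.75. With the other 5 lists (macrophage, erythroid, muscle, cartilage matrix and neural) the values lay between -0.78 and 0.65. These are descriptions over 10 libraries of 4 groups, and the libraries share group and depth. Within *aadd*, replicate 2 had the highest endothelial sum, at 37.3 NRPKM against 10.0 and 5.2, and also the highest level of 8 of the 10 genes, among them *Notch4* (1.01), *Notch2* (36.5) and *Hes1* (6.69), whereas *Dll1* was highest in *aadd* replicate 1 (0.524) and *Jag2* in replicate 3 (0.524). Replicate 2 was the highest of the 3 for the sum of every marker list but the neural one, with erythroid genes at 190.2 NRPKM against 61.2 and 76.3 and osteoblast genes at 420.8 against 128.1 and 156.6. Hypertrophic replicate 1 had a lower endothelial sum than *aadd* replicate 2, at 21.7, with a higher level of *Notch4* (2.17), *Dll4* (1.61) and *Dll1* (1.5). *Hey1* and *Jag2* were also higher there, while *Notch1*, *Notch2*, *Notch3*, *Jag1* and *Hes1* were lower. Its osteoclast and osteoblast sums were higher than in *aadd* replicate 2, at 72.9 and 1629 NRPKM against 32.5 and 420.8.

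**Figure D4:**
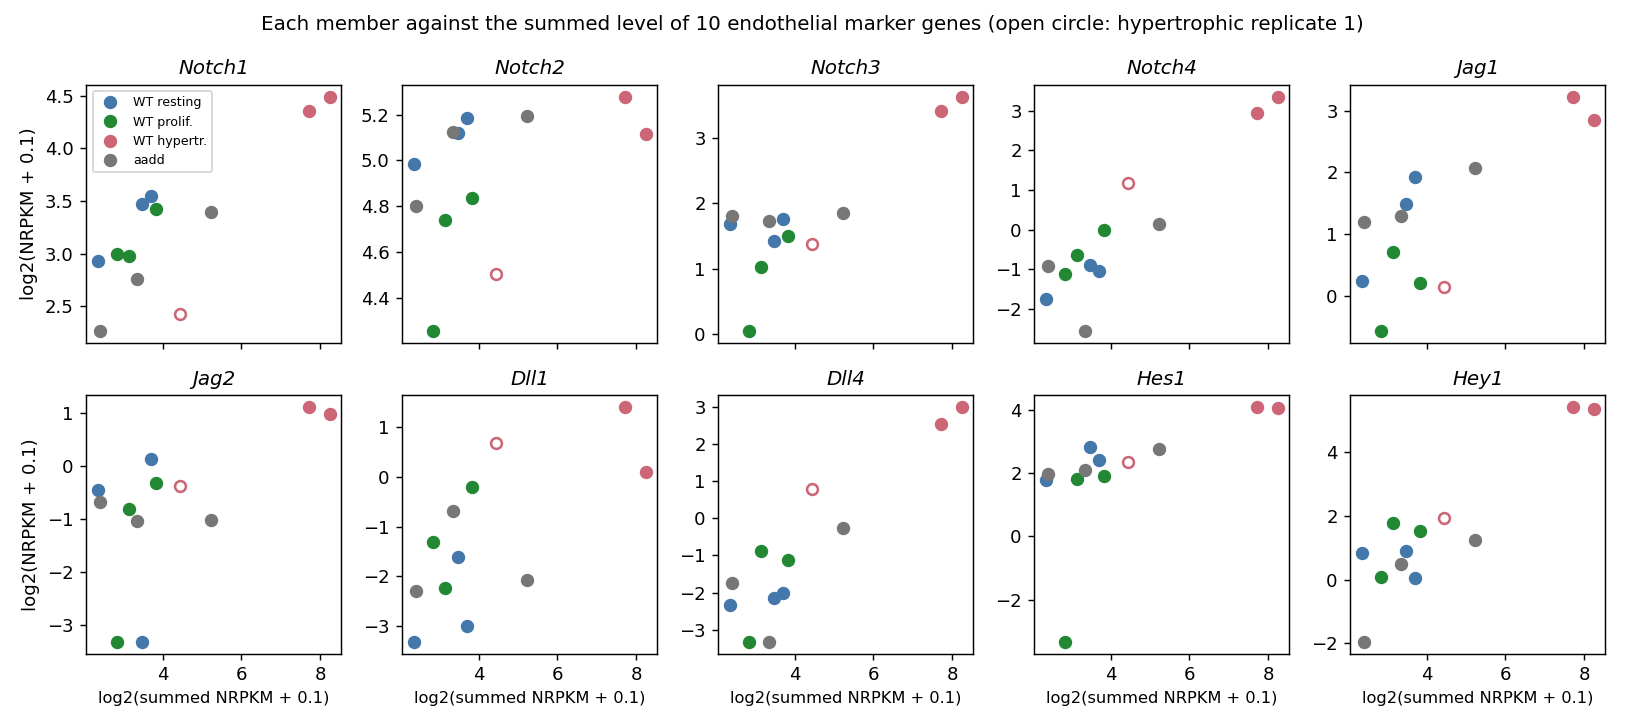
Each gene (vertical axes, log2(NRPKM + 0.1)) against the summed level of 10 endothelial marker genes (horizontal axis, log2(summed NRPKM + 0.1)); points are the 12 libraries by group and the open circle is hypertrophic replicate 1. Hypertrophic replicates 2 and 3, at sums of 304 and 212 NRPKM, stand apart to the right in every panel, and are at the top in all panels but those of *Notch2* and *Dll1*.

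The wider pathway was followed in 59 other genes in 7 lists, of which 38 passed the filter. Between WT proliferative and WT resting 1 of the 38 met the criteria, *Nov*, which encodes a secreted matrix protein (2.97% of all genes met them as lower). It was lower by 1.80 ± 0.66 with overlap between the groups (limma adjusted *P* = 0.26, and 0.48 in the fit of all rows, where it did not meet them). The count was 2 in the blocked fit and without WT resting replicate 1 or WT proliferative replicate 2, and 0 without WT resting replicate 2 or 3 or WT proliferative replicate 1, while 4.65 to 7.4% of all genes met the criteria in these settings. Between WT hypertrophic and WT proliferative 1 was higher and 3 were lower (5.32% and 4.34% of all genes), with a median log2 difference of 0.07 (0.04 over all genes). *Maml3*, a Mastermind-like coactivator of the nuclear complex, was at 13.5, 13.4 and 16.3 NRPKM in WT hypertrophic and 2.89 to 5.97 in WT proliferative, higher by 1.75 ± 0.29 (limma adjusted *P* = 0.12). Here all 3 hypertrophic libraries were alike, replicate 1 with them. It passed the filter through these 3 and 1 proliferative library, and in the fit of all rows its adjusted *P* was 0.22. *Dlk1*, a membrane protein related to Delta that lacks the domain by which ligands activate the receptor, was lower by 2.36 ± 0.56, and *Dtx3*, of the Deltex family, by 1.18 ± 0.34 (adjusted *P* = 0.15 and 0.18). Without hypertrophic replicate 1 the differences were 1.80 ± 0.33 for *Maml3*, -2.94 ± 0.38 for *Dlk1* and -1.54 ± 0.19 for *Dtx3* (limma adjusted *P* = 0.026, 0.011 and 0.010). The count ran from 2 without hypertrophic replicate 3 through 7 without WT proliferative replicate 1 to 10 without hypertrophic replicate 1, and 6.02, 10.2 and 18.4% of all genes met the criteria in these settings.

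Between WT hypertrophic and WT resting 4 of the 38 were higher and 5 lower (5.84% and 7.2% of all genes), with a median log2 difference of 0.05 (-0.02 over all genes). Of the 38, 5 had an adjusted *P* under 0.05 in limma, against 6.36% of all genes. *Maml3* was higher by 2.16 ± 0.19 (adjusted *P* = 0.0038; 2.64 to 3.43 NRPKM in WT resting), and its adjusted *P* was at most 0.025 with any library left out. In the fit of all rows it was 0.025. *Dlk1* was lower by 3.06 ± 0.57 (adjusted *P* = 0.035, and 0.0023 to 0.14 with each library left out), at 28.0, 5.71 and 12.1 NRPKM in WT hypertrophic against 75.6, 116 and 132 in WT resting. *Heyl*, a relative of *Hey1*, was higher by 5.40 ± 1.43 (adjusted *P* = 0.078), at 1.21, 34.8 and 39.6 NRPKM against at most 0.448. It had the same 2 high libraries as *Hey1*, and WT proliferative replicate 3, at 5.61, was the next. These 3 libraries took it past the filter, and in the fit of all rows its adjusted *P* was 0.17. *Nov* was lower by 1.97 ± 0.65 and *Dtx3* by 1.39 ± 0.42 (adjusted *P* = 0.12 and 0.099). Without hypertrophic replicate 1 the differences were 2.21 ± 0.20 for *Maml3*, -3.64 ± 0.40 for *Dlk1*, 7.0 ± 0.75 for *Heyl*, -2.05 ± 0.78 for *Nov* and -1.75 ± 0.35 for *Dtx3* (limma adjusted *P* = 0.0021, 0.0040, 0.0037, 0.11 and 0.021). *Rbpj*, the DNA-binding partner of the receptors, was between 13.5 and 25.8 NRPKM in all 12 libraries and differed by -0.12 ± 0.17 (adjusted *P* = 0.68), or -0.10 ± 0.17 without hypertrophic replicate 1. Its *aadd* libraries, at 21.8, 25.8 and 22.7 NRPKM, lay above all 9 WT libraries (at most 18.2), and the difference from WT resting, 0.51 ± 0.15 (adjusted *P* = 0.35), was short of the FC criterion. Of the 10936 genes past the filter, 884 had all *aadd* libraries above all WT resting ones. How many lay above all 9 WT libraries was not counted.

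By role, the criteria for WT hypertrophic against WT resting, met by 5.84% of all genes as higher and 7.2% as lower, were met by 1 higher of 7 receptor cleavage genes, by 2 higher and 2 lower of 13 nuclear complex genes, and by 1 higher of 3 other target genes. They were also met by 2 lower of 3 ligand-like genes and 1 lower of 7 trafficking genes, and by 0 of 3 glycosylation and 0 of 2 ligand endocytosis genes.

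In *aadd* against WT resting 2 of the 38 were higher and 0 lower (3.78% of all genes met the criteria as higher), and the count was 1 without *aadd* replicate 1, where 8.08% of all genes met them in either direction. *Kat2b*, an acetyltransferase coactivator, was at 5.72, 7.87 and 6.67 NRPKM in *aadd* against 2.82 to 4.22, higher by 0.87 ± 0.22. *Tle1*, a Groucho corepressor that works with Hes proteins, was at 20.7, 16.7 and 15.2 against 9.11 to 13.3, higher by 0.66 ± 0.21. Neither was significant after adjustment in limma (adjusted *P* = 0.28 and 0.38).

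For each gene past the filter, the rows of most similar pattern over the 12 libraries were found by Pearson correlation of log2 values. They were *Cd59a* (*r* = 0.963), *Ctsd* (0.961) and *0610031J06Rik* (0.953) for *Notch1*, *Tbkbp1* (0.970), *Dock6* (0.952) and *Itpkb* (0.942) for *Notch2*, and *Sp140* (0.939), *Atp9a* (0.938) and *Zmiz2* (0.936) for *Hes1*. Without hypertrophic replicates 2 and 3 the values were 0.87 to 0.89 for *Notch1*, 0.93 to 0.97 for *Notch2* and 0.92 to 0.93 for *Hes1*. Without hypertrophic replicate 1, only 1 of the 3 remained among the closest for each of these members. By rank correlation 1 remained for *Notch1* and *Notch2* and 0 for *Hes1*.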

How the data were processed

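RNA-Seq of 12 LCM libraries, 3 per group, was used. Reads had been aligned to mm10 (the submitters' processing notes name TopHat), with duplicates, poor-quality reads and reads of several positions discarded, and quantified in GeneSpring by the authors. Each deposited value is an RPKM that the authors normalized again between libraries (NRPKM). The form of that scaling and the use of strand are not given in the sources used here. Reads behind a value were estimated from the step of single-exon genes of up to 1500 bases, where 84.0 to 94.5% of values came within 0.05 of whole reads. These estimates use the length of the longest annotated transcript of a gene. Error in that length, or in the step, comes on top of the counting error and was not measured.

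The scale of every test was log2(NRPKM + 0.1), in limma 3.58.1 (R 4.3.3), with Python 3.11.15 for tables and plots. Pairwise fits used the 6 libraries compared, with no covariate, and adjustment was over all genes tested (10936 past the filter). The procedure was tested on simulated data for genes past the filter, with the same shift in all hypertrophic libraries. Genes below the filter and a replicate unlike the others were not simulated. The genes followed, the lists and the named genes (all 10 members, and at most 5 non-overlapping pathway genes per comparison that met the criteria, of largest change) were chosen with earlier results of these data known. Named outside that rule were *Nov* between WT proliferative and WT resting, where its groups overlapped, and *Rbpj*, which met the criteria in no comparison. *Hey2*, *Nrarp* and *Mfng* were chosen after their values were seen. Replicate numbers come from the labels. Deviations from the group means correlated between resting and proliferative libraries of equal number (*r* = 0.281, 0.179 and 0.198), which paired them for the block; the other pairs of groups did not meet 0.1 for every number. Tried as alternatives were the replicate block, each library left out, 1 fit of all 12 libraries, a variance trend, no filter or a filter on the compared libraries alone, a pseudocount of 1, and scaling by quantiles or by median of ratios.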

Additional observations from a re-analysis of the deposited data

How the results depend on the processing

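Depth limits every member but *Notch1*, *Notch2* and *Notch3*, which had 14.2 reads or more in every library. Members that met the criteria between WT hypertrophic and WT proliferative numbered 0 of 3 with the filter (9.67% of all genes) and 5 of 10 with no filter (9.42% of all rows). They numbered 1 of 3 with a pseudocount of 1, with all 12 libraries in 1 fit or with a variance trend. In these 3 settings 9.09, 11.5 and 10% of all genes met the criteria. The member was *Hes1* in each of these 3, which in the fit of all rows also gave *Jag1*. Members that differed between WT hypertrophic and WT resting numbered 0 of 3, 4 of 10 with no filter and 1 of 3 with the replicate block. In these settings 13, 12.5 and 13.4% of all genes or rows met the criteria. The F test gave 0 of 3, and 1 of 10 with no filter. Of the other pathway genes, 1 of 38 differed between WT proliferative and WT resting, where 5.53% of all genes did. The count was 2 with quantile normalization or the replicate block, where 5.45 and 6.14% of all genes differed. With no filter, which raised the pathway genes tested from 38 to 59, their counts went from 4 to 9 (WT hypertrophic against proliferative), from 9 to 14 (against resting) and from 2 to 6 (*aadd*), where 9.42, 12.5 and 5.82% of all rows met the criteria.

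With each library left out, of the 3 members past the filter 0 to 0, 0 to 1, 0 to 2 and 0 to 1 met the criteria in the comparisons in the order of the report, the F test gave 0 to 1, and pathway genes numbered 0 to 2, 2 to 10, 6 to 10 and 1 to 3. Of all genes past the filter, 4.65 to 7.4%, 6.02 to 18.4%, 10.9 to 19.2% and 5 to 9.12% met the criteria in these fits. Against WT resting in WT proliferative, leaving out libraries gave -1.32 to 0.65 for *Jag2* (0.11 and 0.41 without WT resting replicate 1 or 2) and -0.06 to 1.16 for *Dll4*. In WT hypertrophic *Notch2* ran from -0.29 to 0.10. In *aadd* the ranges were -0.13 to 0.06 for *Notch2*, -0.53 to 0.83 for *Notch4* (-0.15 without WT resting replicate 1), -0.19 to 0.65 for *Jag1*, -0.75 to 0.98 for *Jag2*, -0.36 to 1.17 for *Dll4*, -0.33 to 0.19 for *Hes1* and -1.33 to 0.26 for *Hey1*. Among the genes most alike, 1 of 3 remained for *Hes1* with a pseudocount of 1. In *aadd*, *Jag2* was at -0.05 with a pseudocount of 1 and *Dll4* at -0.09 with quantile normalization. The causes were not tested. The block was used for all comparisons, although only resting and proliferative libraries correlated above 0.1 for every number, each best with its own. Each hypertrophic library also correlated best with the resting library of its own number, but more weakly (*r* = 0.066, 0.063 and 0.111). Whether these are matched sets was not tested. The block changed no other call of a member than those named.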

Other observations

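Of the 59 other pathway genes, 14 had hypertrophic replicates 2 and 3 above all the other 10 libraries, as 11.6% of all rows did, and 8 had both below those 10, as 9.32% of all rows did. The 3 of them described next were chosen after their values were seen. *Hey2*, the Hey family member best known from heart and arteries, was at 1.30, 7.11 and 6.08 NRPKM in hypertrophic replicates 1, 2 and 3, at 0 in every WT resting library and at most 0.539 elsewhere. Against 3 reads per library its hypertrophic mean was at least 10.7-fold higher than WT resting. This bound was 14.7-fold without hypertrophic replicate 1 and 8.21-fold without hypertrophic replicate 2. *Nrarp*, a feedback inhibitor of the pathway, was at 0.998, 7.44 and 5.48 NRPKM and at most 1.78 elsewhere. *Mfng*, which adds sugars to the receptors, was at 2.02, 11.8 and 6.58 NRPKM and at most 1.82 elsewhere. *Nrarp* overlapped WT resting in hypertrophic replicate 1. *Hes5*, a neural Notch target, was at most 0.274 NRPKM in any library.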
